A study of Mus musculus with 10 samples.

Results

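The soleus, a slow postural muscle of the calf, was compared with the extensor digitorum longus (EDL), a fast muscle at the front of the lower leg. The libraries were chosen by their muscle labels and were 7 of the 10 RNA-seq libraries of the series, 4 of soleus and 3 of EDL. All mice were wild-type animals of the line B6C3Fe a/a-Ttnmdm/J, which carries the mdm deletion in the titin gene, and the labels give no treatment. The remaining 3 libraries, of the psoas muscle, entered the fit to estimate the spread between libraries; they came from males of 42 and 54 days and a female of 44 days. EDL 1 came from a male of 42 days, EDL 2 from a male of 54 days and EDL 3 from a female of 44 days. Soleus 1 came from a male of 42 days, soleus 2 and soleus 4 from females of 44 days, and soleus 3 from a mouse of 32 days whose sex is not given. The 7 libraries carried 6 animal codes, and EDL 3 and soleus 2 shared a code (765A). Soleus 1 and psoas 1 also shared a code, as did soleus 4 and psoas 3, and the fit treated all libraries as separate. The paper counts fewer mice over the 10 libraries than the 7 codes of the labels, so libraries with different codes may share a mouse. Nothing states that libraries of a muscle were prepared independently beyond the animal, so p-values measure the spread between these libraries.

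Slow fibers contract for long periods on fuel burned in mitochondria, mainly fatty acids and lactate taken up from blood, and keep a large store of oxygen on myoglobin. Fast fibers draw on glycogen and creatine phosphate for short bursts, release lactate, and remove calcium quickly after each twitch. Slow nerve activity keeps calcium raised for longer, and calcium-dependent phosphatases and kinases, together with nuclear receptors and other transcription factors, pass this on to the genes of the slow program.

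The deposited values were raw read counts for 16112 genes. Total counts ranged from 15016122 to 47825953 in EDL and from 12737971 to 26848423 in soleus, and levels are given as normalized CPM, each count as a share of the library's total in CPM units, scaled by the TMM factors of edgeR. A count of 0 allows up to 3 counts, which was between 0.0627 and 0.2 CPM in EDL and between 0.112 and 0.236 CPM in soleus, a limit that reflects counting error alone. Low-quality bases had been trimmed from the reads of EDL 1 and EDL 2 but not from EDL 3 or any soleus library, so trimming and muscle were partly confounded and the trimmed libraries hold no soleus. The summed level of 8 skeletal muscle markers was 17518 and 19758 CPM in EDL 1 and EDL 2, 34907 CPM in EDL 3, and between 27741 and 31642 CPM in soleus, so that EDL 3 stood apart from the other EDL libraries. The defining markers Ckm and Acta1 were present in all 7 libraries.

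Soleus and EDL differed in 929 of the 16112 genes (5.77%), of which 578 (3.59%) were higher and 351 (2.18%) lower in soleus. To be called, a gene had to differ by over 2-fold with an adjusted p below 0.01. The higher genes had a median log2 fold change (soleus minus EDL) of 1.69, and 208 of them differed by over 4-fold. The lower genes had a median of -1.97, and 171 differed by over 4-fold. All 578 higher genes and 343 of the 351 lower genes had the same direction in the pair of libraries from animal 765A, and the same held in the fit of untrimmed libraries only. Both reuse libraries that made the calls. The muscles did not overlap for 577 of the higher and 339 of the lower genes (29.5% of all genes). For these genes the direction in any such pair was fixed by the lack of overlap. With read trimming as a covariate, 371 genes (2.3%) were called, with a 3-level term from trimming and age 251 (1.56%), in untrimmed libraries alone 48 (0.298%), and by DESeq2 1520 (9.43%). Leaving out EDL 1, EDL 2 or soleus 4 left 385, 405 and 588 calls, and leaving out EDL 3 raised them to 1511. A called gene that is described on its own below kept its call without any of the 7 libraries unless the library is named.

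Across 17 gene lists of fuel use, signaling, regulation and contraction, 148 of the 628 genes listed were called, and the lists differed in direction. Of all genes, 5.77% were called, 3.59% higher and 2.18% lower in soleus. Fatty acid genes stood higher in soleus almost throughout, with 28 of 36 called higher and none lower. In the list of glycogen use and glycolysis, 7 of 28 were called lower and none higher. The lists of calcium cycling, transcription regulators, growth signals and excitability each held called genes in both directions, and their medians lay between 0.11 and 0.13, near the median of all genes (-0.05). Without EDL 1 or EDL 2 the total fell to 94 and 95 members, and with trimming as a covariate it was 91. The lists were not set against other genes by a test.

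**Figure D1:**
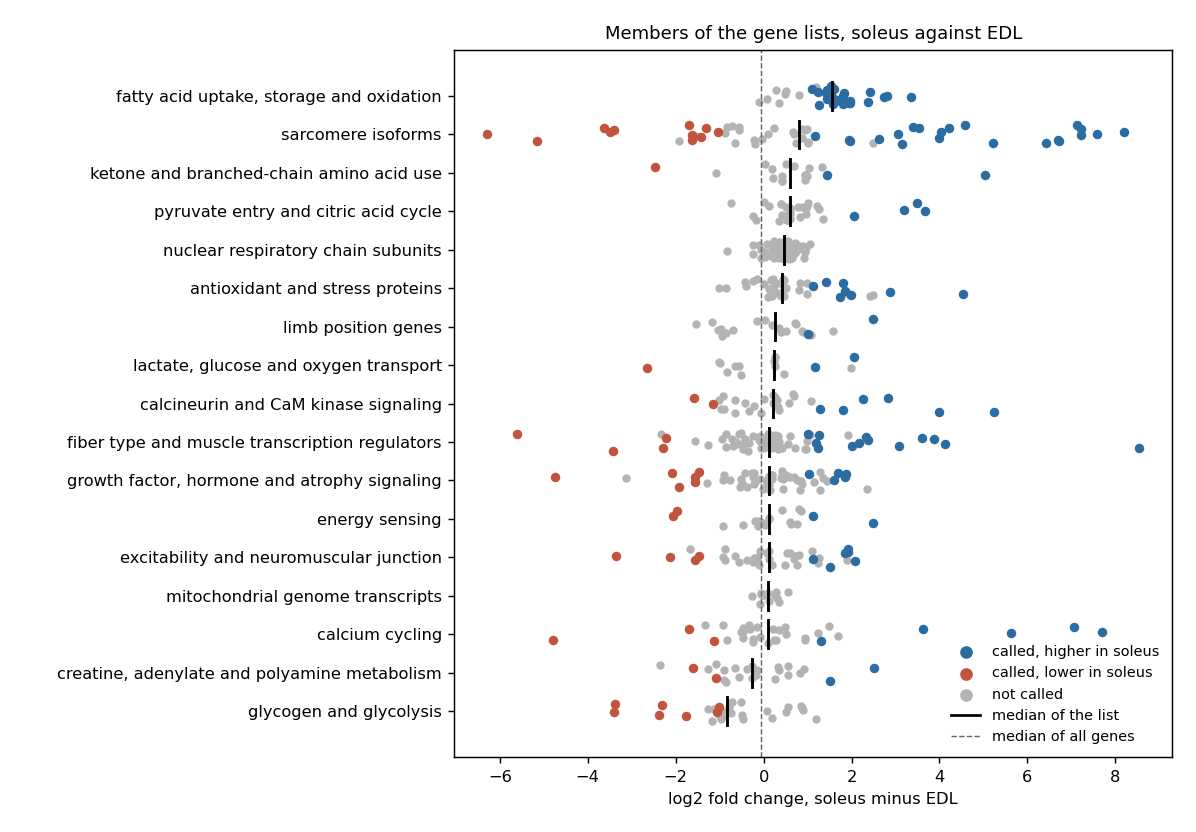
Log2 fold change (soleus minus EDL, horizontal axis) of each measured member of the 17 gene lists, ordered by median; blue points were called higher in soleus, red points lower, grey points were not called, black bars mark list medians and the dashed line the median of all genes. The fatty acid list lies to the right, with a median of 1.54, and the glycogen and glycolysis list to the left, with a median of -0.84.

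Genes of carbohydrate use were lower in soleus where they were called. The leading genes were the pair that carries reducing equivalents from glycolysis into mitochondria, Gpd2 (mitochondrial glycerol-3-phosphate dehydrogenase) and its cytosolic partner Gpd1, together with Pfkfb3, which makes the activator of phosphofructokinase. Gpd2 (ENSMUSG00000026827, chr2:57237635-57370719 in GRCm38) measured 157, 150 and 304 CPM in the 3 EDL libraries and 25.3, 15.6, 16.4 and 20.3 CPM in the 4 soleus libraries. The groups did not overlap, and EDL 3 was the highest library. The log2 fold change was -3.39 ± 0.30 (SE; adjusted p = 7.85e-05), and -4.01 in untrimmed libraries. Pfkfb3 measured 97.1, 73.4 and 85.6 CPM in EDL and 5.27, 13, 7.18 and 6.55 CPM in soleus, without overlap (-3.40 ± 0.33, adjusted p = 1.11e-04). Gpd1 was 5.24-fold lower in soleus, at 29 ± 11.4 against 152 ± 34 CPM (SD, n = 4 and 3).

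Subunits of phosphorylase kinase, which switches on glycogen breakdown, were lower as well. The catalytic gamma subunit Phkg1 fell by 2.32 on the log2 scale (adjusted p = 1.46e-04) and the alpha subunit Phka1 by 1.77 (adjusted p = 2.99e-04). Their target, the muscle glycogen phosphorylase Pygm, measured 1480, 1659 and 3118 CPM in EDL and 1294, 939, 1062 and 947 CPM in soleus; it did not overlap but missed the thresholds (-0.98, adjusted p = 0.0331). Ppp1r3a, a targeting subunit that brings phosphatase 1 to glycogen, was called at -1.05, and lost its call without EDL 2 (-1.0), soleus 2 (-1.01), soleus 3 (-1.06) or soleus 4 (-1.04). Triose phosphate isomerase Tpi1 was called at -1.01 and lost the call without any single library, with values from -1.18 to -0.87. Enzymes of the central steps of glycolysis such as Aldoa (-1.27), Eno3 (-1.17), Ldha (-1.02) and Gapdh (-0.51) were not called, nor were glycogen synthase Gys1 (0.89) and the branching enzyme Gbe1 (1.19). Over the whole list, 23 of 28 members did not overlap between the muscles (29.5% of all genes, 15.2% with soleus higher and 14.3% with soleus lower) and the median was -0.84. In bulk tissue, fewer fibers that express a gene and less RNA per fiber cannot be told apart, here and in all that follows.

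The 2 lactate transporters were called in opposite directions, and the oxygen carrier myoglobin was called higher in soleus. The monocarboxylate transporter Slc16a1 (MCT1), which takes lactate up, measured between 74.1 and 75.7 CPM in EDL and between 159 and 178 CPM in soleus (1.18 ± 0.15, adjusted p = 5.79e-04). Slc16a3 (MCT4), which exports lactate, measured 105, 137 and 116 CPM in EDL and 35, 11.7, 15 and 13.8 CPM in soleus (-2.66 ± 0.34, adjusted p = 5.81e-04). Neither gene overlapped, and soleus 1 was the highest soleus library for Slc16a3. Myoglobin (Mb) measured 1258, 1654 and 1699 CPM in EDL and 6982, 5347, 7343 and 5744 CPM in soleus (2.05 ± 0.28, adjusted p = 8.29e-04). These were the 3 called genes of a list of 15 (20%, against 5.77% of all genes). Basigin (Bsg), the partner that both transporters need at the membrane, was not called (-0.57, adjusted p = 0.0371), and the glucose transporter Slc2a4 (GLUT4) differed by 0.26 (adjusted p = 0.238).

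Lactate dehydrogenase followed the same division. Ldhb, whose subunit favors the oxidation of lactate, measured 67.7, 69.3 and 91.9 CPM in EDL and 836, 751, 992 and 869 CPM in soleus (3.50 ± 0.40, adjusted p = 3.05e-04; 3.18 in untrimmed libraries). Per kilobase, Ldhb made up 29.6% ± 2.53 (SD, n = 3) of the sum of Ldha and Ldhb in EDL and 90.3% ± 2.31 (n = 4) in soleus. Slc16a1 made up 43.2% ± 3.19 of the sum of both transporters in EDL and 91.7% ± 4.38 in soleus. Both shares were without overlap, with p = 0.0571 in an exact two-sided permutation test, the smallest that 4 against 3 libraries allow, and 0.0714 after adjustment over the 10 shares tested, so no share can pass 0.05.

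In pyruvate entry into mitochondria and the citric acid cycle, the called genes were higher in soleus. Apart from Ldhb, they were the pyruvate dehydrogenase kinases Pdk1 and Pdk4, which shut pyruvate dehydrogenase down, and Idh2, the NADP-dependent mitochondrial isocitrate dehydrogenase. Of 34 members, 4 were higher (11.8%, against 5.77% of all genes) and none lower. The muscles did not overlap for 25 of the 34 (29.5% of all genes), and the median was 0.60. Pdk1 measured 52.4, 47.3 and 83.6 CPM in EDL and between 232 and 297 CPM in soleus (2.05 ± 0.27, adjusted p = 6.55e-04). Pdk4 spread widely, at 75.1, 144 and 25.3 CPM in EDL and 970, 334, 928 and 742 CPM in soleus (3.19 ± 0.54), and lost its call without EDL 1 (3.08). Idh2 (3.68 ± 0.54) lost it without EDL 1 (3.46) and without EDL 2 (3.53). The pyruvate carrier genes Mpc1 (0.53) and Mpc2 (0.50) and the dehydrogenase subunit Pdha1 (0.79) were not called, and neither was citrate synthase (Cs, 0.97, adjusted p = 0.00699), whose difference was under 2-fold. The count of called genes fell to 2 without EDL 1 and rose to 9 without EDL 3.

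None of 83 nuclear-encoded subunits of the respiratory chain was called by edgeR, although 77 had a positive difference and 41 an unadjusted p under 0.05. Of all 16112 genes, 7560 had a positive difference and 5646 an unadjusted p under 0.05. DESeq2 called 1 subunit and limma-voom none, and the median of the list was 0.46. The largest difference in the list was 1.05, and without EDL 3 there were 3 calls. The ATP synthase genes Atp5a1 (0.66), Atp5b (0.64) and Atp5c1 (0.36) were typical of it. None of 13 transcripts of the mitochondrial genome was called by edgeR, DESeq2 or limma-voom, and none had an unadjusted p under 0.05; their summed level was between 68146 and 107497 CPM in EDL and between 66519 and 139968 CPM in soleus, so the muscles overlapped. The first listed, mt-Atp6 (0.12), mt-Atp8 (0.01) and mt-Co1 (0.56), all overlapped.

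Fatty acid genes were called higher in soleus from uptake at the capillary through storage to oxidation in mitochondria. Of 36 members, 28 were called higher (77.8%, against 5.77% of all genes) and none was called lower. Ucp2 was the only member with a negative difference. Lipoprotein lipase (Lpl, ENSMUSG00000015568, chr8:68880491-68907448 in GRCm38), which frees fatty acids from circulating triglyceride, measured 255, 218 and 236 CPM in EDL and 1596, 1644, 1658 and 1684 CPM in soleus. The muscles were far apart and the libraries of each muscle close together. The log2 fold change was 2.80 ± 0.19 (adjusted p = 2.17e-05), and 2.75 in untrimmed libraries. The fatty acid translocase Cd36, at 210 to 335 CPM in EDL and 602 to 1124 CPM in soleus, was called at 1.59 and lost its call without EDL 1 (1.61) or EDL 2 (1.72). The binding protein Fabp3 (2.41) lost it without EDL 1 (2.32).

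Genes of triglyceride storage and release differed widely in size of change, from the largest of the list to among the smallest. Dgat2, which makes the last step of triglyceride synthesis, measured 7.73, 7.01 and 10.1 CPM in EDL and 132, 73.6, 54.5 and 74.5 CPM in soleus (3.35 ± 0.33, adjusted p = 1.15e-04). Plin5, which ties lipid droplets to mitochondria, was nearly constant in EDL at 8.94, 8.41 and 8.79 CPM and measured 73.1, 40, 56.7 and 62.3 CPM in soleus (2.73 ± 0.36, adjusted p = 6.07e-04). The triglyceride lipase Pnpla2 was 2.9-fold higher, from 12.7 ± 2.76 to 37 ± 6.62 CPM. In contrast, Dgat1 (0.08) and Plin2 (0.29), which act in the same steps in many tissues, were not called.

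Activation and oxidation genes were higher by smaller and similar steps. Acsl1, which links fatty acids to coenzyme A, was 3.84-fold higher (adjusted p = 2.01e-04), Cpt2, the inner-membrane carnitine transferase, 2.86-fold (adjusted p = 3.97e-04), and the medium-chain dehydrogenase Acadm 3.5-fold (adjusted p = 6.55e-04). The trifunctional protein subunit Hadha and the dehydrogenase Hadh were 3.07-fold and 3.03-fold higher, and the mitochondrial thioesterase Acot2 was 5.21-fold higher. The carnitine transferase of the outer membrane, Cpt1b, differed by 1.19 (adjusted p = 0.0198) and was not called, as was the carnitine carrier Slc25a20 (0.80). The uncoupling proteins Ucp2 (-0.10, and 1.87 in untrimmed libraries) and Ucp3 (0.48) were not called. Acacb, whose product malonyl-CoA inhibits Cpt1b, and Mlycd, which removes malonyl-CoA, were called higher together (1.84 and 1.49), and both lost the call without EDL 1 (1.62 and 1.32) or EDL 2 (1.69 and 1.41).

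Of the 28 called members, 10 kept the call without each library in turn, 13 with trimming as a covariate and 6 with the 3-level term. The count was 11 without EDL 1 and 13 without EDL 2, and with EDL 3 as the only EDL library (untrimmed libraries) it was 1, while the median stayed at 1.34. Adipocyte markers moved in the same direction, with a median of 2.02. Of 8 markers, 1 was called higher (12.5%, against 5.77% of all genes), and none without EDL 1. Their summed level was between 107 and 223 CPM in EDL and between 156 and 319 CPM in soleus, with no marker at 0. Adiponectin (Adipoq) measured 2.08, 5.37 and 5.22 CPM in EDL and 16.6, 11.2, 25.7 and 6.33 CPM in soleus, and Fabp4 differed by -0.19. The part of adipocytes in the fatty acid result was not tested.

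**Figure D2:**
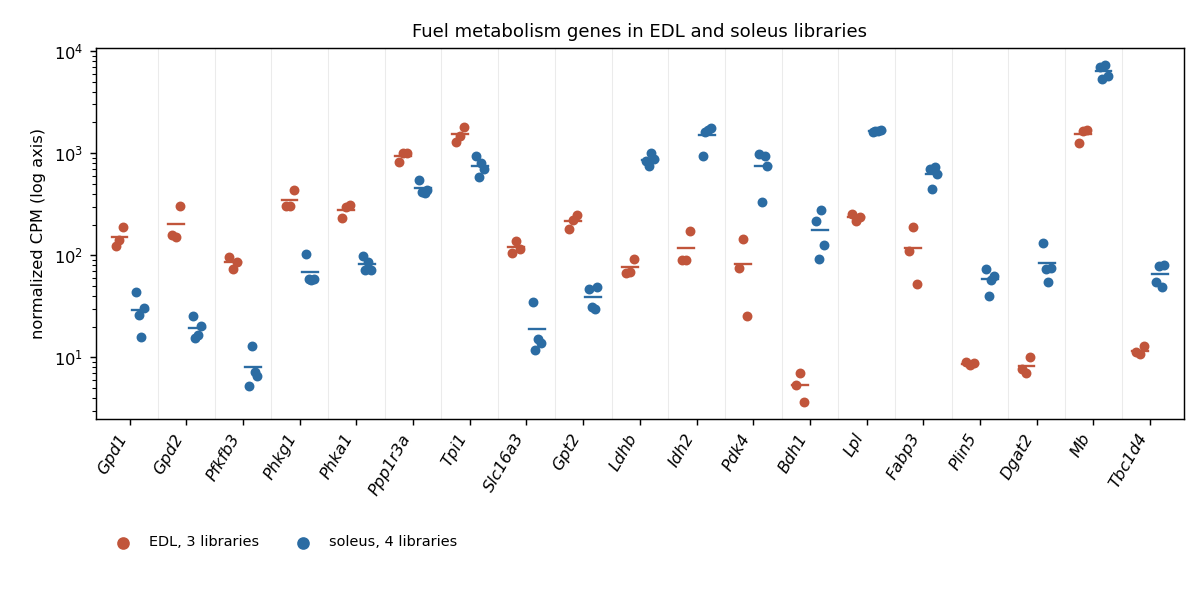
Normalized CPM (vertical log axis) of fuel genes in the 3 EDL libraries (red) and 4 soleus libraries (blue), 1 point per library, with horizontal lines at the mean of each muscle. The muscles do not overlap for any gene shown, from Gpd1 on the left, at 152 CPM in EDL and 29 CPM in soleus, to Tbc1d4 on the right, at 11.6 and 65.2 CPM.

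Ketone body use differed by a single large step. Bdh1, the mitochondrial enzyme that oxidizes beta-hydroxybutyrate, measured 5.42, 7.01 and 3.68 CPM in EDL and 219, 91.1, 277 and 126 CPM in soleus. The lowest soleus library was above every EDL library by over 10-fold. The log2 fold change was 5.04 ± 0.51 (adjusted p = 1.45e-04), and 5.55 in untrimmed libraries. Oxct1, the transferase that follows it, differed by 0.94 and was not called (adjusted p = 0.013), and Acat1, the thiolase of the last step, was called at 1.45 but not without EDL 1 (1.32) or EDL 2 (1.45). Gpt2, the mitochondrial alanine aminotransferase, went the other way, at 181, 222 and 247 CPM in EDL and 47.1, 30.8, 30 and 48.9 CPM in soleus (-2.46 ± 0.23, adjusted p = 1.05e-04). Of 18 members, 2 were higher and 1 lower (16.7%, against 5.77% of all genes). Without EDL 1 it was 1 of each, and without EDL 3 there were 5 higher.

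Energy buffering genes were called in both directions, with 2 isoforms of AMP deaminase among them. Of 25 measured members of the creatine, adenylate and polyamine list, 2 were higher and 2 lower (16%, against 5.77% of all genes), with a median of -0.26. Ampd1, the muscle form of this enzyme, measured 719, 648 and 767 CPM in EDL and 230, 197, 247 and 261 CPM in soleus (-1.61 ± 0.23, adjusted p = 0.00104) and fell in soleus, while Ampd3 measured 1.35, 1.36 and 0.824 CPM in EDL and between 5.34 and 8.67 CPM in soleus (2.51 ± 0.26, adjusted p = 1.56e-04). The creatine kinases Ckm (-0.86), Ckmt2 (0.91) and Ckb (-0.17) were not called. The share of the mitochondrial form Ckmt2 in the sum of Ckm and Ckmt2 was 19.9% ± 4.56 in EDL and 45% ± 3.13 in soleus, without overlap (exact permutation p = 0.0571). Without EDL 1 or EDL 2 the list held 1 call in each direction, without EDL 3 it held 3 in each. The creatine transporter Slc6a8 (1.52) lost its call without EDL 1 (1.27) or EDL 2 (1.39), and the adenylosuccinate synthase gene Adss (-1.09) without any library but EDL 3, with values from -1.13 to -0.95.

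AMP-activated protein kinase, the sensor of low energy charge, differed in its regulatory subunits. The catalytic subunits Prkaa1 (0.04) and Prkaa2 (0.12) and the beta-1 subunit Prkab1 (-0.12) overlapped between the muscles. The beta-2 subunit Prkab2 measured 116, 112 and 255 CPM in EDL and 38.7, 30.4, 47.8 and 36.9 CPM in soleus (-2.06 ± 0.28, adjusted p = 7.64e-04). The gamma-3 subunit Prkag3 measured 33.5, 25.3 and 36.2 CPM in EDL and 13.6, 7.3, 7.82 and 3.48 CPM in soleus (-1.98 ± 0.34); its call was lost without EDL 1 (-1.99) or soleus 2 (-1.94). Prkag3 made up 55.7% ± 5.18 of the summed gamma subunits in EDL and 17.3% ± 7.02 in soleus (exact permutation p = 0.0571). Tbc1d4, a substrate that restrains GLUT4 until insulin releases it, was higher in soleus at 54.5, 78, 48.7 and 79.5 CPM against 11.3, 10.8 and 12.8 CPM (2.49 ± 0.33, adjusted p = 6.55e-04), whereas its relative Tbc1d1 differed by -0.92 (adjusted p = 0.0467). Of the 19 members, 2 were higher and 2 lower (21.1%, against 5.77% of all genes), and 1 of each without EDL 1. Among the called, Mtor (1.13) lost its call without EDL 1 (1.06), EDL 2 (1.04) or soleus 3 (0.94).

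**Figure D3:**
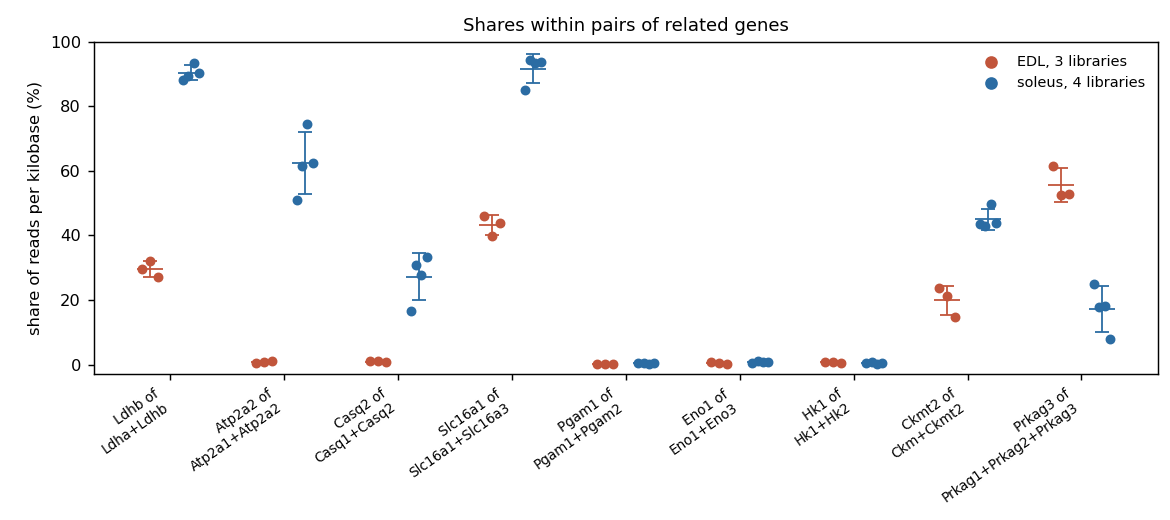
Share of the first-named gene in the sum of its pair or family, in percent of reads per kilobase (vertical axis), for sets of related genes in EDL (red) and soleus (blue); points are libraries, lines the mean and bars the SD. The Ldhb share is 29.6% in EDL and 90.3% in soleus, the Atp2a2 share 0.801% and 62.4%, and the shares of Eno1 and Hk1 overlap.

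Among called genes of calcium handling, the differences were largest in the pump Atp2a2, the small pump regulators Sln and Strit1 and the buffer Pvalb. The reticulum pump Atp2a2 (SERCA2), the slow and cardiac form, measured 17.6, 18.3 and 79 CPM in EDL and 3660, 5473, 6610 and 4759 CPM in soleus. EDL 3 was the highest EDL library and still far below soleus. The log2 fold change was 7.07 ± 0.66 (adjusted p = 1.05e-04), and 5.97 in untrimmed libraries. The fast pump Atp2a1 (SERCA1) overlapped between the muscles (-0.48, adjusted p = 0.361), and so did Atp2a3 (-0.25); Atp2a2 made up 0.801% ± 0.273 of the sum of Atp2a1 and Atp2a2 in EDL and 62.4% ± 9.59 in soleus.

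Of the small regulators of the pump, Sln and Strit1 were called higher in soleus. Sarcolipin (Sln), which uncouples the pump from calcium transport, measured 1.12, 0.848 and 1.04 CPM in EDL and 18.3, 65.1, 30.1 and 83.4 CPM in soleus (5.62 ± 0.62, adjusted p = 2.33e-04). Strit1, which encodes the micropeptide DWORF that counters such inhibitors and is listed as Gm34302 in the annotation, measured 0.0701, 0.132 and 0.659 CPM in EDL and 22.3, 31.7, 77.9 and 50.6 CPM in soleus (7.70 ± 0.74, adjusted p = 1.11e-04). Neither gene overlapped, and within soleus both varied over 3-fold between libraries. Phospholamban (Pln) differed by 1.70 and was not called (adjusted p = 0.129), and myoregulin (Mrln) by -0.84 (adjusted p = 0.0446).

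Buffers and stores went in both directions. Parvalbumin (Pvalb), the soluble calcium buffer of fast fibers, measured 4601, 4696 and 8210 CPM in EDL and 333, 78.8, 80.8 and 345 CPM in soleus (-4.80 ± 0.57, adjusted p = 3.85e-04). The reticulum store Casq1 was lower in soleus, at 545 ± 106 against 1755 ± 516 CPM (-1.69 ± 0.24, adjusted p = 0.00109), and its cardiac relative Casq2 higher, at 153, 329, 231 and 480 CPM against 23.8, 19.6 and 29.4 CPM (3.62 ± 0.56). The Casq2 call was lost without EDL 1 (3.55) or EDL 2 (3.49). The Casq2 share of both was 0.992% ± 0.0922 in EDL and 27.2% ± 7.31 in soleus. Micu3, a regulator of mitochondrial calcium uptake from outside the lists, was 4.63-fold lower in soleus (adjusted p = 3.66e-05). Of 33 members, 5 were higher and 3 lower (24.2%, against 5.77% of all genes). The release channel Ryr1 (1.24) and the voltage sensor Cacna1s (0.29) were not called. Cacng1, a subunit of that sensor, was called at -1.12 and lost the call without any library but soleus 3, with values from -1.29 to -0.86.

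Stretches before the start of 4 called genes are shown because each holds a short motif of a factor family studied in muscle. They were picked with the directions of the genes known, and whether a motif bears on direction was not tested. Windows of 250 bases before to 50 after the start were taken from RefSeq (GRCm38.p6) for 10706 of the tested genes and searched on both strands for 5 fixed strings, none of which overlaps another by being contained in it. The string CTAAAAATA, a MEF2 box, was in 0.351% of the 13672 windows of these genes, in 0.835% of those of genes called higher (5 of 599) and in 0 of the 275 of genes called lower. The E-box CAGCTG was in 15.7%, 18% and 17.8% of them, TCAGGTT (an element of the Six2 family) in 3.29%, 2.67% and 6.18%, TGCTGAC (a core of Maf sites) in 3.89%, 4.51% and 4.73%, and TCAAGGTCA (an estrogen-related receptor element) in 0.256%, 0.501% and 0%. Capitals below mark the matched string, which for Casq2 is on the opposite strand; a match is a description of these letters and not of a bound site.
Casq2, chr3:102086307-102086395, plus strand, MEF2 box 68 bases before the start: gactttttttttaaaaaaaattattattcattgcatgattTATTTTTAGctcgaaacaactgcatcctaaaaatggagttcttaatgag
Casq1, chr1:172220045-172220130, minus strand, E-box 195 bases before the start: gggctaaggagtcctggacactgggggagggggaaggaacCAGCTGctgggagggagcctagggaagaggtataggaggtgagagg
Mb, chr15:77022875-77022960, minus strand, E-box 133 or 193 bases before an annotated start: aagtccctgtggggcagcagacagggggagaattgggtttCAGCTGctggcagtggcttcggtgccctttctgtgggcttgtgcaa
Fhl2, chr1:43196762-43196819, minus strand, Maf core 18 bases before the start: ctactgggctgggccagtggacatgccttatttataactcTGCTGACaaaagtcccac

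In calcineurin and calmodulin kinase signaling, which reads the calcium signal, 6 of 29 members were called higher and 2 lower (27.6%, against 5.77% of all genes), with a median of 0.22. The summed level of the list was between 1632 and 2162 CPM in EDL and between 3326 and 5597 CPM in soleus. The calcineurin subunits Ppp3ca (-0.65), Ppp3cb (0.30) and Ppp3cc (0.32) overlapped between the muscles and were not called. Rcan2, a calcineurin regulator, measured 17.8, 22 and 19.5 CPM in EDL and 146, 124, 161 and 127 CPM in soleus (2.82 ± 0.19, adjusted p = 2.26e-05; 2.79 in untrimmed libraries). Its relative Rcan1, whose transcription calcineurin drives, was called at 1.81 and lost the call without EDL 2 (1.74). The LIM protein Fhl2 measured 1.26, 0.528 and 0.384 CPM in EDL and 28.2, 25.3, 24.6 and 37.1 CPM in soleus (5.24 ± 0.37, adjusted p = 2.62e-05). Fhl2 was at a low level in EDL and clearly present in every soleus library.

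Kinases of this group were divided. Camk2a was lower in soleus, at 11, 10.9, 9.01 and 11 CPM against 27.7, 31.2 and 35.3 CPM (-1.58 ± 0.24, adjusted p = 0.00146), and Gsk3b, which sends NFAT out of the nucleus, was 2.45-fold higher (adjusted p = 0.00104). The NFAT factors Nfatc1 (0.34), Nfatc2 (0.68), Nfatc3 (-0.05) and Nfatc4 (-1.02) were not called. Calm3, a calmodulin gene, was called at -1.16 and lost its call without EDL 2 (-1.12), soleus 1 (-1.14) or soleus 4 (-1.21). Fhl1 (2.25) lost it without any library but soleus 1, with values from 1.99 to 2.50, and the muscle LIM protein Csrp3 (3.99) without any single library, with values from 3.75 to 4.20. The list held 3 higher and 1 lower without EDL 2.

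Transcription regulators gave 13 higher and 4 lower of 66 measured (25.8%, against 5.77% of all genes), with a median of 0.13. Of these 17 calls, 12 were kept without each library in turn, and without EDL 1 there were 8 higher and 4 lower. Estrogen-related receptors, which switch on genes of oxidative metabolism, were higher as a family. Esrrg measured 1.8, 2.79 and 2.64 CPM in EDL and 31.4, 32.8, 25.8 and 26.1 CPM in soleus (3.60 ± 0.20, adjusted p = 4.64e-06; 3.41 in untrimmed libraries). Esrrb measured 0.234, 0.415 and 0.33 CPM in EDL and between 4.72 and 7.36 CPM in soleus (4.12 ± 0.36, adjusted p = 7.61e-05). Esrra was called at 1.24 but not without EDL 1 (1.01), EDL 2 (1.24) or soleus 3 (1.10), and Ppara, the fatty acid-sensing receptor, was called at 2.33 but not without EDL 1 (2.19). Their coactivators Ppargc1a (0.33, adjusted p = 0.143) and Ppargc1b (0.33) were not called.

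Homeobox, bHLH and related factors were also called higher in soleus. Sim2, a single-minded bHLH factor, was at 1 read over the 3 EDL libraries and at 435 reads over the 4 soleus libraries. Scaled by library totals and TMM factors, the ratio was 624, with an exact 95% interval from 111 to 24703 for counting error. Sim2 levels in soleus were 6.16, 6.94, 3.51 and 3.64 CPM, and EDL 2 and EDL 3 were at 0 (adjusted p = 4.56e-05). Sim1, its paralog, measured 0.864, 1.17 and 1.15 CPM in EDL and between 6.73 and 11.1 CPM in soleus (3.07 ± 0.26, adjusted p = 7e-05). Prox1, a homeobox factor of slow fibers, measured between 0.415 and 0.934 CPM in EDL and between 5.68 and 11.4 CPM in soleus (3.87 ± 0.40, adjusted p = 1.46e-04). Barx2 (2.37), Vgll2 (2.16) and Tead1 (2.02), the last 2 a cofactor and a DNA-binding factor that act together, were 5.16-, 4.47- and 4.05-fold higher.

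The 4 regulators called lower in soleus were Maf and Mafa, large Maf factors known as activators of the fastest myosin gene, and Six2 and Eya4, whose families act as partners on fast muscle genes. Maf measured 24.5, 29.4 and 29.7 CPM in EDL and 7.39, 4.61, 5.1 and 6.65 CPM in soleus (-2.23 ± 0.22, adjusted p = 1.14e-04). Mafa measured 5, 10.2 and 6.37 CPM in EDL and between 0.319 and 0.958 CPM in soleus (-3.43 ± 0.41, adjusted p = 3.97e-04). Eya4 fell by 2.29 on the log2 scale (adjusted p = 0.00225), and soleus 1, at 10.9 CPM, was the highest soleus library against 4.38 to 4.7 CPM in the others. Six2 was near its floor, with 95 reads over the EDL libraries and 1 read over the soleus libraries, a ratio of 66.2 with an exact 95% interval from 11.6 to 2643. Tbx15 (-0.47) and Sox6 (-0.63), which are studied as fiber type factors, were not called.

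**Figure D4:**
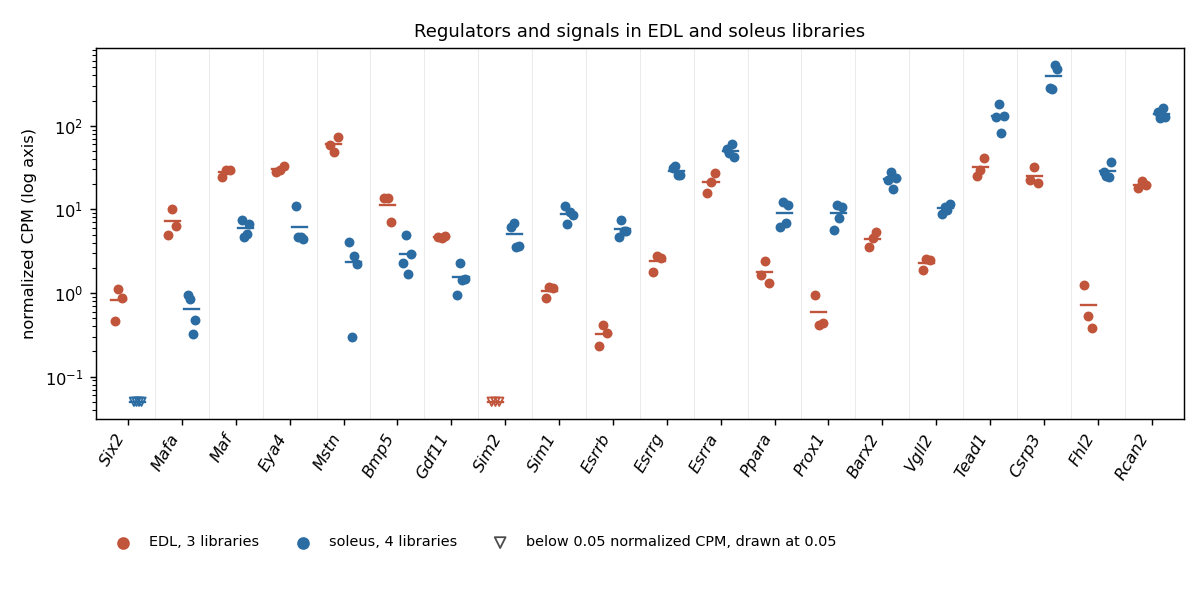
Normalized CPM (vertical log axis) of regulators and signals in the 3 EDL libraries (red) and 4 soleus libraries (blue), with lines at the mean; open triangles mark values below 0.05 CPM, drawn at 0.05. Six2, Mafa, Maf, Eya4, Mstn, Bmp5 and Gdf11 are lower in soleus without overlap, and the genes from Sim2 to Rcan2 are higher without overlap.

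Growth, hormone and atrophy signals gave 5 higher and 6 lower of 57 measured (19.3%, against 5.77% of all genes), with a median of 0.13. Myostatin (Mstn, ENSMUSG00000026100, chr1:53061640-53068079 in GRCm38), the secreted brake on muscle growth, measured 58.3, 48.3 and 72.8 CPM in EDL and 4.04, 0.299, 2.79 and 2.22 CPM in soleus. Every soleus library was over 10-fold below every EDL library. The log2 fold change was -4.75 ± 0.60 (adjusted p = 5.03e-04), and -5.09 in untrimmed libraries. Its type I receptor Acvr1b was also lower, at 10.2, 9.21, 7.18 and 7.81 CPM against 18.1, 20.9 and 38.2 CPM (-1.57 ± 0.25, adjusted p = 0.00188), whereas the type II receptors Acvr2a (-0.20) and Acvr2b (0.11) and the inhibitor Fst (0.87) were not called. The close ligand Gdf11 was called at -1.57 and lost its call without any library but EDL 3 and soleus 2, with values from -1.63 to -1.41.

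Fgf1 was 3.61-fold higher in soleus, at 45.1, 45.6, 64.8 and 44.9 CPM against 12.7, 14.4 and 14.5 CPM (adjusted p = 2.45e-04). Akt1 (1.04), Angptl4 (1.61) and Musk (1.88), the kinase that organizes the synapse, were also called higher. Akt1 lost its call without any library but EDL 3 and soleus 3, with values from 0.89 to 1.06, Angptl4 without EDL 1 (1.55) or soleus 2 (1.58) and Musk without any library but soleus 2, with values from 1.55 to 1.99. The ubiquitin ligase Fbxo32 (atrogin-1) was called at 1.70 and lost its call without EDL 2 (1.70), while its usual companion Trim63 differed by -0.09. Igf1 (-0.53), Igf2 (0.75) and Igf1r (-0.21) were not called. Among genes of stromal cells in the list, Igfbp6 (-1.47), Bmp5 (-1.92) and Dkk3 (-2.08) were lower, and each lost its call without EDL 2 (-1.38, -1.77 and -2.01), Bmp5 also without EDL 1 (-1.84), soleus 1 (-1.81) or soleus 4 (-1.90). The list held 2 higher and 4 lower without EDL 1, 2 and 2 without EDL 2, and 3 and 4 without soleus 1 or soleus 4.

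Fibroblast and tendon markers moved with these stromal genes. Of 8 fibroblast markers 3 were called lower (37.5%, against 5.77% of all genes), with a median of -1.09. Their summed level was between 2551 and 4218 CPM in EDL and between 671 and 1500 CPM in soleus. Of 11 tendon markers 1 was called lower (9.09%, against 5.77% of all genes), with a median of -1.30. Their summed level was between 889 and 994 CPM in EDL and between 129 and 627 CPM in soleus. In both lists the sums did not overlap, and no marker was at 0. No fibroblast marker was called without EDL 1, EDL 2 or soleus 4, with trimming as a covariate (median -0.68) or with the 3-level term (median -0.58), and no tendon marker was called without EDL 2, soleus 1 or soleus 4 or under either covariate. Their part in the stromal results was not tested. Endothelial, smooth muscle, nerve and erythroid markers held no calls by edgeR, DESeq2 or limma-voom, with medians of -0.19, 0.01, -0.48 and -1.55. Of their 8, 7, 7 and 6 measured members, 3, 0, 1 and 2 had an unadjusted p under 0.05 by edgeR. So had 5646 of all 16112 genes. Of 5 measured cartilage and bone markers, 1 was called lower (20%, against 5.77% of all genes), with a median of -1.13. It was Col9a1, with 414 reads over the EDL libraries and 2 over the soleus libraries. In the same list 2 markers had a positive difference, up to 1.99, and DESeq2 called 1 higher and 2 lower. The summed levels overlapped, at 13.95 to 19.33 CPM in EDL and 7.416 to 16.15 CPM in soleus. Of 8 macrophage markers 1 was called lower (12.5%, against 5.77% of all genes), with summed levels of 83.2 to 209 CPM in EDL and 67.6 to 106 CPM in soleus. The macrophage call was lost without EDL 1, EDL 2, soleus 2, soleus 3 or soleus 4. With trimming as a covariate the macrophage median turned from -0.86 to 0.23 and the erythroid median from -1.55 to 1.41, and in untrimmed libraries they were 0.15 and 1.79. Of 9 immediate early genes none was called by edgeR, 1 was by DESeq2, 2 had an unadjusted p under 0.05, and soleus 3 had the highest sum, 182 CPM against 43.8 to 132 CPM in the other libraries.

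Excitability genes differed in sodium pump subunits and potassium channels. The beta-1 subunit of the sodium pump, Atp1b1, was 2.85-fold higher (adjusted p = 3.17e-04) and the beta-2 subunit Atp1b2 4.33-fold lower, at 1.4 ± 0.214 against 6.17 ± 2.29 CPM (adjusted p = 5.27e-04). The groups did not overlap for either gene.

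Kcnc4, a voltage-gated potassium channel, measured 5.23, 5.48 and 12.5 CPM in EDL and 1.1, 0.658, 0.239 and 0.95 CPM in soleus (-3.36 ± 0.43, adjusted p = 5.61e-04). Kcnma1, the large calcium-activated potassium channel, was higher in soleus, at 65.1, 89.4, 80.8 and 65.8 CPM against 18.3, 21.4 and 22.4 CPM (1.86 ± 0.19, adjusted p = 1.50e-04). The sodium channel Scn4a (0.19) and its subunit Scn4b (-0.21) overlapped, and the chloride channel Clcn1 was lower by under 2-fold (-0.92, adjusted p = 0.00475). At the synapse, Ache (-1.46) and the adult receptor subunit Chrne (-1.57) were called lower and Colq (2.08), the collagen tail that anchors acetylcholinesterase, higher. All of these lost the call without EDL 1 (-1.40, -1.47 and 2.05) and without EDL 2 (-1.43, -1.56 and 2.11), among other libraries. In all, 6 of 39 were higher and 4 lower (25.6%, against 5.77% of all genes), and 3 and 2 without EDL 1 or EDL 2 and 4 and 2 without soleus 4.

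**Figure D5:**
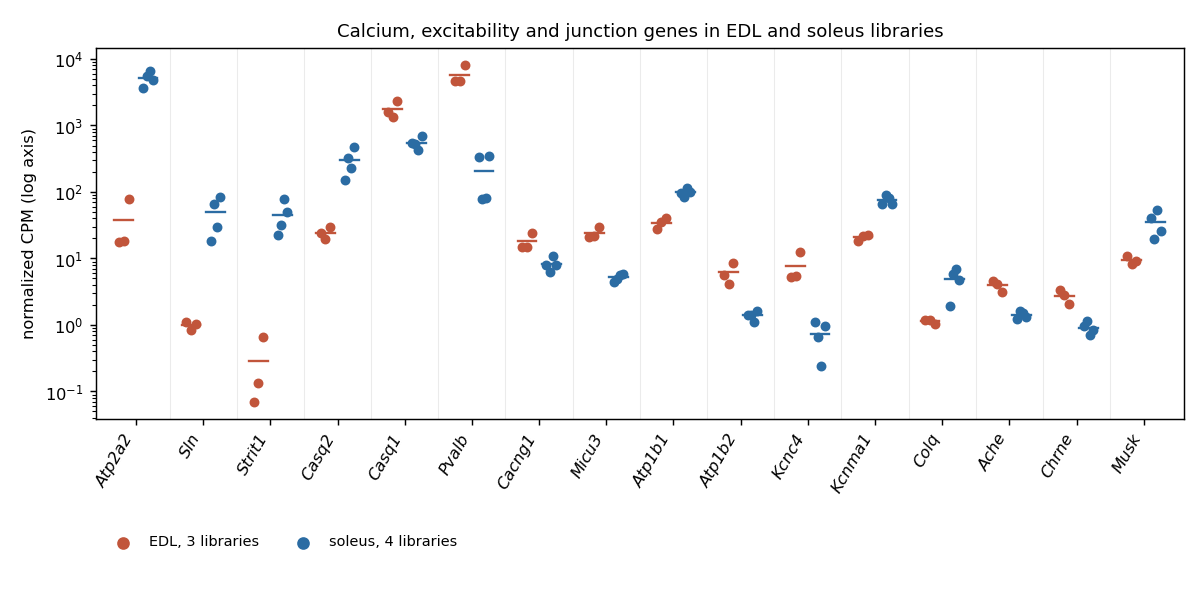
Normalized CPM (vertical log axis) of calcium, excitability and synapse genes in the 3 EDL libraries (red) and 4 soleus libraries (blue), with lines at the mean. Atp2a2 averages 38.3 CPM in EDL and 5126 CPM in soleus, Pvalb 5836 and 209 CPM, and no gene shown overlaps between the muscles.

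Of 38 antioxidant and stress proteins, 8 were called higher in soleus and none lower (21.1%, against 5.77% of all genes), with a median of 0.42. The small heat shock protein Hspb7 (chr4:141420779-141425311 in GRCm38) measured 4.04, 8.72 and 5.38 CPM in EDL and 120, 121, 165 and 157 CPM in soleus (4.53 ± 0.39, adjusted p = 7e-05; 4.66 in untrimmed libraries). Cryab, the alpha-B crystallin chaperone, was 7.29-fold higher (adjusted p = 8.84e-05), Hspb6 3.94-fold (adjusted p = 8.84e-05) and the co-chaperone Dnajb4 3.33-fold (adjusted p = 3.21e-04). Catalase (Cat), which breaks down hydrogen peroxide, measured 54.8, 64.6 and 58.2 CPM in EDL and 192, 176, 266 and 220 CPM in soleus (1.85 ± 0.21, adjusted p = 3.13e-04). The superoxide dismutases Sod1 (0.23), Sod2 (0.41) and Sod3 (0.41) overlapped and were not called. Bag3 (1.81), a partner of the small heat shock proteins, lost its call without EDL 1 (1.57), EDL 2 (1.75) or soleus 3 (1.72), and the list held 5 calls without EDL 1.

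Among limb position genes, which mark place along the limb, 2 of 22 measured were called higher and none lower (9.09%, against 5.77% of all genes). Of the 22, 10 did not overlap (29.5% of all genes did not), and the median was 0.27. Neither call was kept without each library in turn or with trimming as a covariate. The homeobox gene Pitx3, at 0.244 ± 0.133 CPM in EDL and 1.41 ± 0.375 CPM in soleus, was called at 2.48 and lost the call without EDL 2 (2.23), soleus 2 (2.42) or soleus 4 (2.33). Hoxa7 (-0.14), Hoxa9 (-0.85), Hoxa10 (-0.96), Tbx4 (1.58) and Pitx1 (-1.17) were not called.

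Sarcomere isoforms are given here only as a scale for the rest. Of 56 measured, 21 were higher and 11 lower (57.1%, against 5.77% of all genes), and 24 calls were kept without each library in turn. The slow myosin heavy chain Myh7 measured 7.54, 30.1 and 117 CPM in EDL and between 6836 and 13574 CPM in soleus, and EDL 3 was again the highest EDL library. The fast chain Myh4 was between 38374 and 54886 CPM in EDL and between 113 and 1692 CPM in soleus (-5.16 ± 0.73, adjusted p = 9.86e-04). Myh1 overlapped between the muscles (-0.57), Myh2 was called at 1.97 and lost the call without any library but soleus 1, with values from 1.80 to 2.05, and the embryonic Myh3 (0.70) was not called.

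Outside the lists, the 10 higher and 10 lower genes named here were picked for the smallest p without overlap in these same libraries, so that their calls without each library follow in part from the choice. Zdhhc23, a palmitoyltransferase, measured 0.56, 0.66 and 0.714 CPM in EDL and 10.6, 10.7, 13.1 and 11.9 CPM in soleus (4.17 ± 0.23, adjusted p = 4.64e-06). Lgi1, a secreted synaptic protein, measured between 0.957 and 1.59 CPM in EDL and between 26.3 and 44.3 CPM in soleus (4.89 ± 0.36, adjusted p = 3.19e-05). Dusp18, a phosphatase, was 48.5-fold higher (adjusted p = 7e-05), Adprhl1 6.99-fold (adjusted p = 3.19e-05), the repressor Snai3 15.6-fold (adjusted p = 5.67e-05) and Rp1 15.8-fold (adjusted p = 4.92e-05). The actin regulator Enah (1.71) and the non-muscle myosin Myh10 (2.27) were higher by smaller steps. Tpm3-rs7 (4.98) shares sequence with the slow tropomyosin gene Tpm3 (6.42), and its value is uncertain because reads of near-identical copies could be split between them.

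The lower genes outside the lists were led by Plcd4 and Micu3. Plcd4, a phospholipase C, measured 85, 68.6 and 82.3 CPM in EDL and 13.3, 11.5, 6.38 and 10.1 CPM in soleus (-2.93 ± 0.22, adjusted p = 3.19e-05). The tetraspanin Tspan8 measured 66.7, 69.5 and 96.2 CPM in EDL and between 1.58 and 5.02 CPM in soleus (-4.32 ± 0.35, adjusted p = 4.92e-05). Slc37a4, the glucose-6-phosphate transporter of the endoplasmic reticulum, was 6.68-fold lower (adjusted p = 1.14e-04), the phospholipid flippase Atp8a1 6.63-fold (adjusted p = 1.11e-04) and the calcium channel subunit Cacna2d4 22.5-fold (adjusted p = 1.15e-04). Gdap1, a mitochondrial fission factor, was at 18.7 ± 3.19 CPM in EDL and 1.54 ± 0.434 CPM in soleus (-3.65 ± 0.32, adjusted p = 7.61e-05). Stxbp4 (-2.11) and Ccdc88c (-1.84) completed the group with Epyc, a matrix proteoglycan at 4.62, 3.75 and 7.63 CPM in EDL and at 0 in all soleus libraries, which is at least 22.3-fold higher in EDL at a floor of 3 counts per soleus library.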

How the data were processed

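Whole soleus, EDL and psoas muscles of wild-type mice were measured by RNA-seq of ribosome-depleted total RNA (paired reads, 3 sequencing runs whose libraries are not listed). The deposited values were counts, raw reads per gene made by the authors with GenomicAlignments from alignments to GRCm38; the submitters' processing notes name TopHat2 2.1.1, Trimmomatic 0.32, BWA, FastQC, Picard, mm10 and GRCm38.p4. The strand setting and the treatment of reads that match several genes are not given in the sources used here, so overlapping genes and near-identical copies cannot be told apart. All 16112 deposited genes had at least 10 reads in at least 3 libraries, and 16032 had a symbol.

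Counts of all 10 libraries were fitted in edgeR 4.0.16 (R 4.3.3, TMM factors, quasi-likelihood test, no covariate). Soleus minus EDL was called over 2-fold at p below 0.01 after Benjamini-Hochberg adjustment. These thresholds are those of the study's methods, but the study used the Wald test of DESeq2. Every adjusted p of a gene is from the edgeR test, and ± after a log2 fold change is its standard error. Isoform shares used reads per kilobase and an exact two-sided permutation test (SciPy 1.17.1). Deposited totals are given in the report; a count of 0 was read as at most 3 counts.

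The groups came from the labels. The comparison, its 17 pathway lists (628 genes listed), its 11 marker lists and the motifs were chosen with earlier results of these data known, and no list was tested as a set. For each list, called genes and the first 3 members were named; outside the lists, the 10 higher and 10 lower genes with the smallest p, no overlap, at least 5 CPM in the higher muscle and a regular symbol. Some genes that the rule names are not reported here. Other uncalled genes were named for their role after their values were seen. The fit was tested on simulated data. Alternatives were DESeq2 1.42.0, its size factors, limma-voom (limma 3.58.1), upper-quartile scaling, a 1-CPM filter, a test against a 2-fold change, a looser threshold of 0.05, EDL and soleus only, trimming, sex, a 3-level term, a replicate block and each library left out; the fit of untrimmed libraries was added after seeing the data.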

Additional observations from a re-analysis of the deposited data

Results flagged for a closer look

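Soleus libraries were tested for a single value far from the others with Dixon's ratio at its 95% limit. Of 186 tests, 12 passed, and chance gives about 1 in 20. Soleus 1 was the far value in 7 of them. It was highest for Phkg1 (102.6 CPM), Slc16a3 (35.03 CPM), Eya4 (10.88 CPM), the Z-disc gene Myoz1 (417.7 CPM) and the fibroblast marker Pdgfra (30.17 CPM), and lowest for Idh2 (928.4 CPM) and the Slc16a1 share (85.11%). Soleus 2 was lowest for Myh4 (112.9 CPM) and highest for Six2 (0.02991 CPM, which is 1 read). Soleus 3 was lowest for Camk2a (9.011 CPM) and highest for Fgf1 (64.83 CPM) and for the Ckmt2 share (49.62%). For Phkg1, Slc16a3, Eya4, Myoz1, Idh2 and the Slc16a1 share the value of soleus 1 lay on the EDL side of the other soleus libraries but outside the EDL range. Pdgfra was called lower in soleus, so its value in soleus 1 was on the EDL side too.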

How the results depend on the processing

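The 929 calls between soleus and EDL became 1520 with DESeq2, 1853 at an adjusted p under 0.05, 371 with trimming as a covariate, 251 with the 3-level term, 185 in a test against a 2-fold change, 48 in untrimmed libraries only (1 EDL library, assumed to vary like the others), and 385 to 1511 when a library was left out. The 148 list members became 91 (trimming), 74 (3-level term), 60 (test against 2-fold), 25 (untrimmed) and 94 to 165 (a library left out). With a replicate block, 586 genes and 121 list members were called. No EDL and soleus libraries of the same number shared a code. The paper counts fewer mice than there are codes, so differing codes do not show that the animals differed. Deviations from the muscle mean correlated at 0.336, -0.153 and -0.036 in same-numbered libraries and at 0.187 in EDL 3 and soleus 2 of animal 765A. Neither the codes nor these correlations settle which libraries are paired. None of 176 named called genes changed direction, and 26 were called under every alternative; 111 stayed called with trimming, 93 with the 3-level term and 34 in untrimmed libraries. In untrimmed libraries the Hk1 share turned to 0.163 points (-0.193 with all) and the Ckmt2 difference was 30.2 points (25.1 with all). Genes that were not called turned sign as follows. With trimming Prkaa1 was -0.09, Prkaa2 -0.22, Atp2a3 0.09, Igf1 0.07 and Hoxa7 0.19. With the 3-level term Ckb was 0.09, Prkaa1 -0.07, Prkaa2 -0.24, Atp2a3 0.13, Igf1 0.37, Sod1 -0.01 and Hoxa7 0.25. In untrimmed libraries Prkaa1 was -0.12, Prkaa2 -0.63, Ppp3cb -0.35, Scn4a -0.14 and Hoxa7 0.15. With sex as a covariate Prkaa1 was -0.02 and Prkab1 0.01; with upper-quartile scaling Prkaa1 was -0.04 and mt-Atp8 -0.09; with the 1-CPM filter mt-Atp8 was -0.04. When a library was left out, Prkaa1 ran from -0.04 to 0.10, Prkaa2 from -0.13 to 0.65, Prkab1 from -0.22 to 0.03, Atp2a1 from -0.74 to 0.12, Scn4b from -0.43 to 0.16, Hoxa7 from -0.34 to 0.03, mt-Atp6 from -0.13 to 0.44 and mt-Atp8 from -0.25 to 0.35. The cause of these changes was not tested. Counting error limits the genes near the floor. Among those named, Six2 was near it in soleus, Sim2 in EDL, and Strit1 in EDL 1 and EDL 2.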
